A study of Mus musculus with 2 samples.

Results

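The BCL2 family was followed in RNA-seq of primary mouse hepatic stellate cells, the vitamin A-storing pericytes of the liver that turn into matrix-producing cells when they are cultured. The 10 listed genes were looked up by symbol in the deposited table, and all 10 were found among its 17145 rows. They comprised 4 survival genes (Bcl2, Bcl2l1, Mcl1 and Bcl2a1b) and 6 death-promoting genes, of which Bax and Bak1 are effectors and Bid, Bcl2l11, Bbc3 and Pmaip1 are BH3-only genes. The 4-OHT group was 1 library of cells treated with 100 nM 4-hydroxytamoxifen (4-OHT), and the vehicle group was 1 library of cells without it. All cells carried the genotype Adar1f/f/Cre-ER and had been activated by culture over 4 days; when 4-OHT was added was not given in the labels. 4-OHT switches on the recombinase Cre-ER, which removes the floxed Adar1 gene, so the comparison asked how loss of the RNA-editing enzyme ADAR1 alters expression. The vehicle cells carried the same alleles, and no 4-OHT-treated cells without Cre-ER were among the samples analysed here, so deletion of Adar1 and 4-OHT itself cannot be told apart. Adar1 was not analysed here, and the promoter that drives Cre-ER, the number of mice and any pooling were not given in the sources used here.

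Proteins of the BCL2 family decide at the outer mitochondrial membrane whether a cell undergoes apoptosis. BAX and BAK form the pores that release cytochrome c. BCL2, BCL-XL, MCL1 and A1 hold them and the BH3-only proteins in check, and BH3-only proteins neutralise these guardians or activate BAX and BAK directly. In the liver, BID links death receptors on the cell surface to mitochondria.

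Of the 6 death-promoting members, 5 were higher in the 4-OHT library and Bax was lower, while 2 survival members were higher and 2 lower. Of the 13558 genes tested, 7217 were higher and 6341 lower. Bid, Pmaip1, Bbc3 and Bak1 were each at least 1.5-fold higher with 4-OHT, beside 11.7% of all genes tested, and none of the 4 survival members was. Survival genes outside the 10 went both ways. Bcl2a1d and Bcl2a1a, near copies of Bcl2a1b, passed 1.5-fold at log2 changes of 1.31 and 0.66, and Bcl2l2 was at −0.25. Death-promoting genes outside the 10 were level or lower, with Bok at −0.55, Bmf at −0.40, Bad at −0.01 and Bik at 0.01. Bbc3 and Pmaip1 came under 1.5-fold with a pseudocount of 5, at log2 changes of 0.51 and 0.57, and with both libraries set to the same FPKM total, at 0.55 and 0.57. The median log2 change was 0.71 over the 6 death-promoting members and 0.18 over the 4 survival members. Over the 13558 genes that reached 1 FPKM in either library it was 0.03. The 2 medians of members hold for the listed 10 only, and medians with the outside genes of each role were not tested. FPKM, fragments per kilobase of transcript scaled to library size, was the deposited unit. A log2 change is the log2 of 4-OHT FPKM plus 1 over vehicle FPKM plus 1, and the 1.5-fold and 2-fold calls use that scale, whereas each ratio printed with an interval is of FPKM itself. With 1 library per group, no difference had a replicate check and no test across replicates was possible.

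The marker genes went against the label of a stellate cell culture in part. The 15 stellate cell markers measured, of 16 listed, summed to 175 FPKM in the 4-OHT library and 384 FPKM in the vehicle library. They were led by the proteoglycan gene Dcn at 65.6 FPKM and 121 FPKM. Of the 15, 7 were at least 2-fold lower with 4-OHT, beside 3.48% of all genes tested. So were 3 of 16 macrophage and Kupffer cell markers and 2 of 10 liver endothelial markers. All 16 macrophage and Kupffer cell markers were measured and summed to 5095 FPKM with 4-OHT and 7213 FPKM with vehicle, led by Lyz2, the lysozyme of myeloid cells, at 1353 FPKM and 3050 FPKM. The 10 liver endothelial markers summed to 1231 FPKM with 4-OHT and 1572 FPKM with vehicle, with Cdh5, the endothelial cadherin, at 319.7 FPKM and 300.2 FPKM. Macrophage and endothelial markers were thus far above stellate markers in both libraries, and no marker of these 3 lists was at 0. The values below are therefore those of a culture whose RNA held strong macrophage and endothelial signals, in which fewer cells of a type and less RNA per cell cannot be told apart. The part of these marker differences in the values of the BCL2 family was not tested. The lists for other cells were measured in part, with 1 of 6 hepatocyte, 2 of 4 cholangiocyte, 4 of 7 lymphocyte, 1 of 6 neutrophil and 2 of 5 dendritic cell markers, and in full for mesothelium (5) and smooth muscle (3). The measured markers summed to 12.9 FPKM or less per list in the 4-OHT library and 11.8 FPKM or less in the vehicle library, and the smooth muscle gene Actg2 was listed at 0 with 4-OHT.

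**Figure D1:**
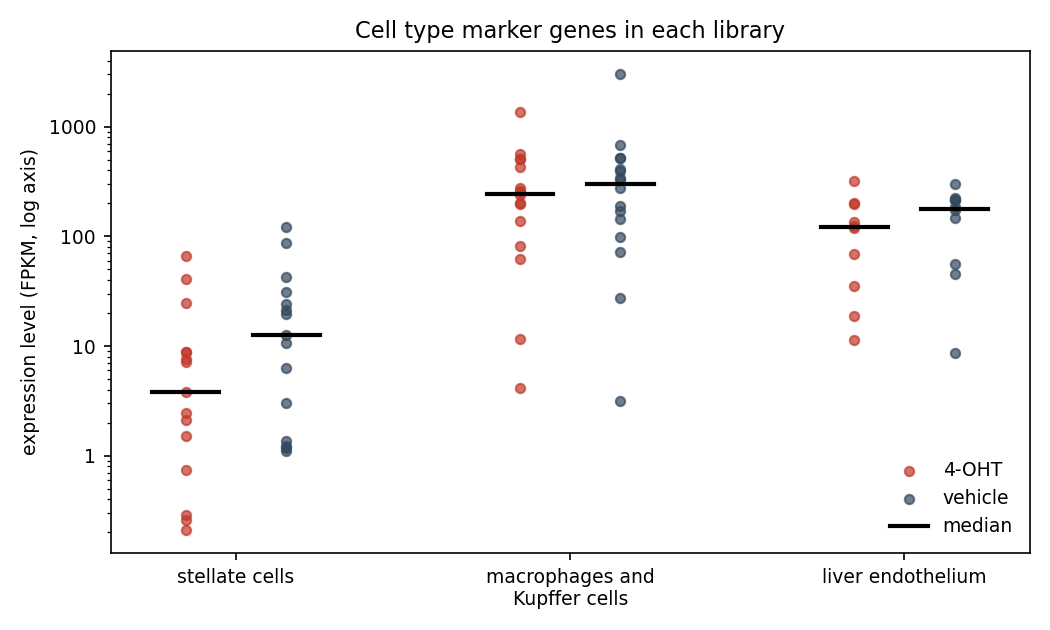
Level of each marker gene (points, FPKM, log axis) in the 4-OHT library (left in each pair) and the vehicle library (right), with the median of the list as a black bar. The median stellate marker was at 3.83 FPKM with 4-OHT and 12.6 FPKM with vehicle, against 246 and 299 FPKM for macrophage markers and 123 and 179 FPKM for endothelial markers.

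Promoter windows show how closely the genes of the A1 cluster resemble each other and what lies upstream of Bid, the member with the highest change. Windows from 250 bases before to 50 bases after the annotated start came from RefSeq on GRCm38.p6, 14 windows for 9 of the 10 members. The mouse carries several copies of the A1 gene on chromosome 9, and 3 of them, Bcl2a1b (chr9:89199023-89199322, plus strand), Bcl2a1a (chr9:88956670-88956969, plus strand) and Bcl2a1d (chr9:88731801-88732100, minus strand), are shown with capitals at the C/EBP-ATF core TGATGNAA. The Bid window (chr6:120916775-120917074, minus strand) has capitals at the GC box GGGCGG, the usual site of SP1 factors. Each is printed 5′ to 3′ on the strand of its gene.
Bcl2a1b: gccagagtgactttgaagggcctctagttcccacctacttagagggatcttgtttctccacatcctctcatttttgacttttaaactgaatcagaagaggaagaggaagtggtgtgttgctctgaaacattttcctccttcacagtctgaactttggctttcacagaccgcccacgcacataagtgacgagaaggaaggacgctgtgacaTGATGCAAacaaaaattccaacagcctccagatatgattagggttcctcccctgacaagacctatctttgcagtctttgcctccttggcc
Bcl2a1a: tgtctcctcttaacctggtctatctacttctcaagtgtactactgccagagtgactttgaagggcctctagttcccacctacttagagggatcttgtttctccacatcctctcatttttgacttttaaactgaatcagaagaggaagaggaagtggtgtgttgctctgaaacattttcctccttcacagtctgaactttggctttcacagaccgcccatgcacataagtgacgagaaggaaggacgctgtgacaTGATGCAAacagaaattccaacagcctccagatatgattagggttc
Bcl2a1d: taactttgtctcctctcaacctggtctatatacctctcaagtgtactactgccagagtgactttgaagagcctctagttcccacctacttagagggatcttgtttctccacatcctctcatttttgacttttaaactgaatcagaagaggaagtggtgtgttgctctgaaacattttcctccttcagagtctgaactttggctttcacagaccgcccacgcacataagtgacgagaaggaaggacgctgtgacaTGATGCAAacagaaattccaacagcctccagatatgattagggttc
Bid: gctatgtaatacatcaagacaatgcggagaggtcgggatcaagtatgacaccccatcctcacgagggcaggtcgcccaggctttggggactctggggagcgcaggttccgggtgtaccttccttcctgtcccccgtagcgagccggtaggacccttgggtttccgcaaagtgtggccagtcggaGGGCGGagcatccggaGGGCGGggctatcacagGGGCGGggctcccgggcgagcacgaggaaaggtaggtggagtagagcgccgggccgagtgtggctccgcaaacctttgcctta
Aligned, the Bcl2a1b window was 99.2% identical to that of Bcl2a1a over 256 bases and 98.8% identical to that of Bcl2a1d over 250 bases. The core TGATGNAA, searched on both strands, occurred in 3.97% of all 32851 windows, and, of the 9 members with a window, in Bcl2a1b. The core began 40 bases before the annotated start of Bcl2a1b, but 5 bases after that of Bcl2a1a and of Bcl2a1d. The GC box occurred in 35.7% of all windows and in 7 members, and Bid had 3 copies, which began 66, 50 and 33 bases before the start. The interferon-stimulated response element GAAANNGAAA (3.44% of all windows) and the STAT site TTCNNNGAA (8.30%) were in none of the 14 windows. The NF-kB motif, searched by name, was found in windows of Bbc3 and Bcl2l1 (8.46% of all windows). A p53 half-site, also searched by name, was found in the window of Bax (8.36% of all windows). A match is a run of letters and not evidence of binding.

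The members spanned a wide range of levels. In the 4-OHT library the order was Bcl2a1b, Mcl1, Bax, Bak1, Bcl2l1, Bid, Pmaip1, Bbc3, Bcl2l11 and Bcl2, from 217 FPKM to 4.92 FPKM. In the vehicle library Bax stood above Mcl1 and Bcl2l1 above Bak1, and the other 6 members kept their places, from Bcl2a1b at 163 FPKM to Bcl2 at 6.17 FPKM. Of the 10 members, 1 was at least 2-fold higher in the 4-OHT library and none was at least 2-fold lower, beside 5.78% higher and 3.48% lower of all genes tested. At 1.5-fold, 4 members were higher and none lower, beside 11.7% and 10.2% of all genes. All 10 members passed the minimum of 1 FPKM in both libraries. In the authors' deposited table no member had a q-value under 0.05, beside 1.72% of all genes higher and 0.753% lower at that threshold.

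**Figure D2:**
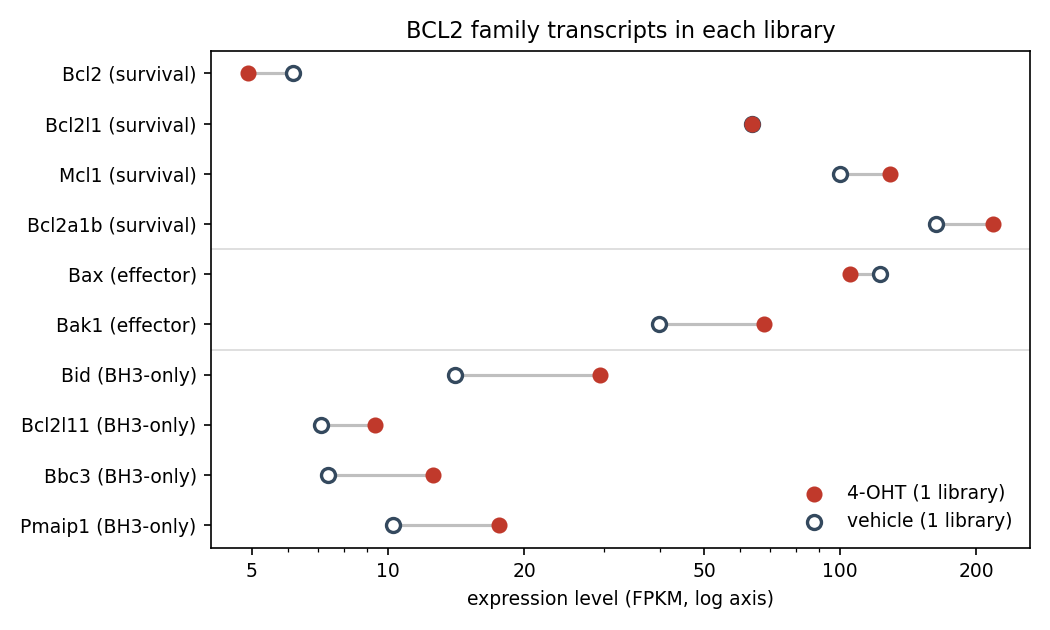
Level of each BCL2 family member (FPKM, log axis) in the 4-OHT library (filled) and the vehicle library (open), 1 library each, grouped by role. Bak1 and all 4 BH3-only genes lie further right with 4-OHT, Bax and Bcl2 lie further left, and the points of Bcl2l1 coincide.

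Among the survival genes, Mcl1 and Bcl2a1b were moderately higher with 4-OHT, Bcl2l1 was level and Bcl2 was lower. Mcl1, whose short-lived protein guards against BAK and BIM (chromosome 3, 95658788 to 95663176, plus strand, GRCm38), was at 129 FPKM with 4-OHT and 100.1 FPKM with vehicle. The ratio was 1.29, and its 95% counting interval ran from 1.22 to 1.36. Intervals are exact, cover counting error only, and rest on the fewest fragments that the annotated transcripts of the gene allow, for Mcl1 2702 with 4-OHT and 2632 with vehicle. Bcl2l1, which encodes BCL-XL (on the minus strand of chromosome 2, 152780668 to 152831728), was at 63.9 FPKM in both libraries, with an interval of the ratio of 0.894 to 1.11. Bcl2, the founding member (on the minus strand of chromosome 1, 106538178 to 106714274), was at 4.92 FPKM with 4-OHT and 6.17 FPKM with vehicle, a ratio of 0.797 with an interval of 0.702 to 0.905. The least abundant survival gene was therefore also the 1 whose interval lay below 1. None of these 3 differences reached 1.5-fold.

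Bcl2a1b, a copy of the A1 gene that myeloid cells express and NF-kB induces (chromosome 9, 89199209 to 89207827, plus strand), was at 217 FPKM with 4-OHT and 163 FPKM with vehicle. The ratio was 1.33, with an interval of 1.28 to 1.39. It was the most abundant member in both libraries and made up 52.4% of the summed survival FPKM with 4-OHT and 48.9% with vehicle. Its near copies were higher by more. Bcl2a1d was at 82.7 FPKM with 4-OHT and 32.7 FPKM with vehicle (ratio 2.53, interval 2.33 to 2.74), and Bcl2a1a was at 67.2 FPKM and 42.3 FPKM (ratio 1.59, interval 1.46 to 1.72). Of the 50-base words in the Bcl2a1b transcript, 79.2% also occurred in transcripts of other genes, among them 57.6% in Bcl2a1d and 41.1% in Bcl2a1a, so how fragments were divided among the copies is uncertain. The sum of the 3 copies does not depend on that division except through their lengths of 817 to 863 bases, and it was 367 FPKM with 4-OHT and 238 FPKM with vehicle, a ratio of 1.54. The share of Bcl2a1d in the sum was 22.5% with 4-OHT and 13.8% with vehicle. A further gene, Gm29094, covers 49.1% of the Bcl2a1b exon bases on the same strand and was listed at 4.49 FPKM and 3.88 FPKM. Macrophage markers, from cells in which A1 is known to be expressed, had changes of −1.20 to 0.50 with a median of −0.25, and 10 of the 16 were below 0. Their part in the Bcl2a1 values was not tested.

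**Figure D3:**
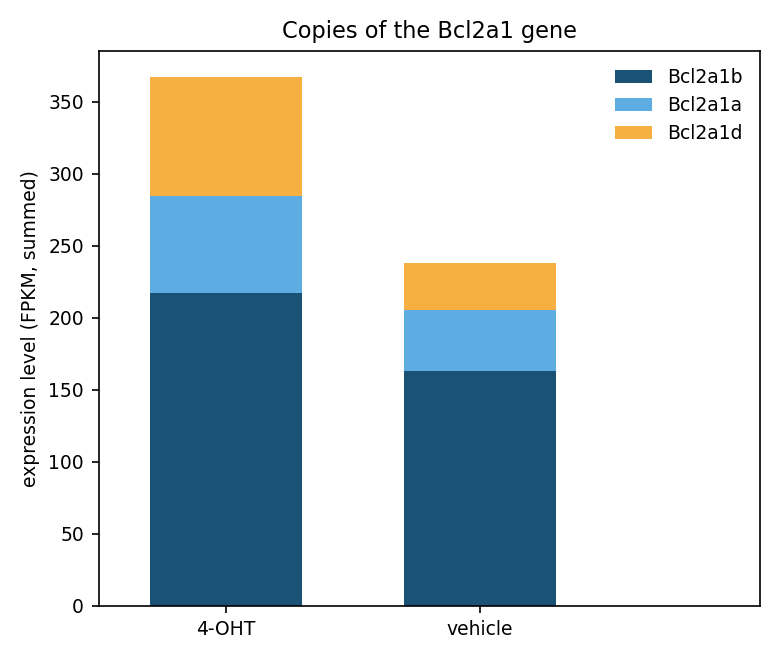
Stacked FPKM of 3 near-identical Bcl2a1 genes in the 4-OHT library (left bar) and the vehicle library (right bar), 1 library each. The bars reach 367 FPKM and 238 FPKM, and the Bcl2a1d segment takes 22.5% of the 4-OHT bar and 13.8% of the vehicle bar.

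The 2 effectors went opposite ways. Bak1, which encodes BAK (on the minus strand of chromosome 17, 27019810 to 27029009), was at 67.7 FPKM with 4-OHT and 39.7 FPKM with vehicle, a ratio of 1.71 with an interval of 1.58 to 1.84. Of all genes tested, 8.20% had a change at least as high as its 0.76. Bax, a target of p53 (on the minus strand of chromosome 7, 45461697 to 45466898), was at 105 FPKM with 4-OHT and 123 FPKM with vehicle, a ratio of 0.859 with an interval of 0.770 to 0.960. The level of Bak1 relative to Bax, which no scaling between libraries can alter, was 0.642 with 4-OHT and 0.324 with vehicle. The effector levels were thus nearer each other with 4-OHT than with vehicle. Their exons overlap other genes in part, 25.5% of Bak1 exon bases with the antisense-strand gene Ggnbp1 and 12.2% of Bax exon bases with Gm45808 on its own strand. Both partners were below 1 FPKM in each library, Ggnbp1 at 0.553 FPKM with 4-OHT and 0.748 FPKM with vehicle and Gm45808 at 0.185 FPKM and 0.447 FPKM.

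The 4 BH3-only genes were all higher in the 4-OHT library, from a low base, beside 7217 of the 13558 genes tested. Bid, whose protein is cut by caspase-8 and then activates BAX and BAK (on the minus strand of chromosome 6, 120891930 to 120916853), was at 29.5 FPKM with 4-OHT and 14.1 FPKM with vehicle. The ratio was 2.09 with an interval of 1.71 to 2.57, and its log2 change of 1.02 was the only one of the 10 past 2-fold. It lay at the threshold, and the alternatives that brought it under are given in the closing section, the lowest at 0.85. Bid ends in a region that Bcl2l13 covers from the opposite strand, 17.7% of its exon bases, and Bcl2l13 was at 12.7 FPKM with 4-OHT and 8.57 FPKM with vehicle. Since strand was not stated for the library or the counting, fragments of that overlap could belong to either gene. Casp8, the protease that cuts BID, was at 83.0 FPKM with 4-OHT and 42.4 FPKM with vehicle, a log2 change of 0.95.

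Pmaip1, which encodes NOXA, a partner of MCL1 and A1 (chromosome 18, 66458533 to 66465565, plus strand), was at 17.6 FPKM with 4-OHT and 10.3 FPKM with vehicle. Its ratio of 1.72 had an interval of 1.48 to 1.98. Bbc3, which encodes PUMA, a binder of all survival proteins (chromosome 7, 16308393 to 16318205, plus strand), was at 12.6 FPKM with 4-OHT and 7.35 FPKM with vehicle, a ratio of 1.71 with an interval of 1.23 to 2.39. Both genes, classical p53 targets that stress pathways can also induce, had nearly the same change, 0.72 for Pmaip1 and 0.70 for Bbc3. Bcl2l11, which encodes BIM (chromosome 2, 128126038 to 128162547, plus strand), was at 9.38 FPKM with 4-OHT and 7.10 FPKM with vehicle, a ratio of 1.32. Its interval of 0.909 to 1.91 included 1, since the shortest of its 8 transcripts allows as few as 63 fragments with 4-OHT and 59 with vehicle. On the longest transcript, with 1394 and 1330 fragments, the interval would be 1.23 to 1.43. The files do not say which transcripts were present.

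**Figure D4:**
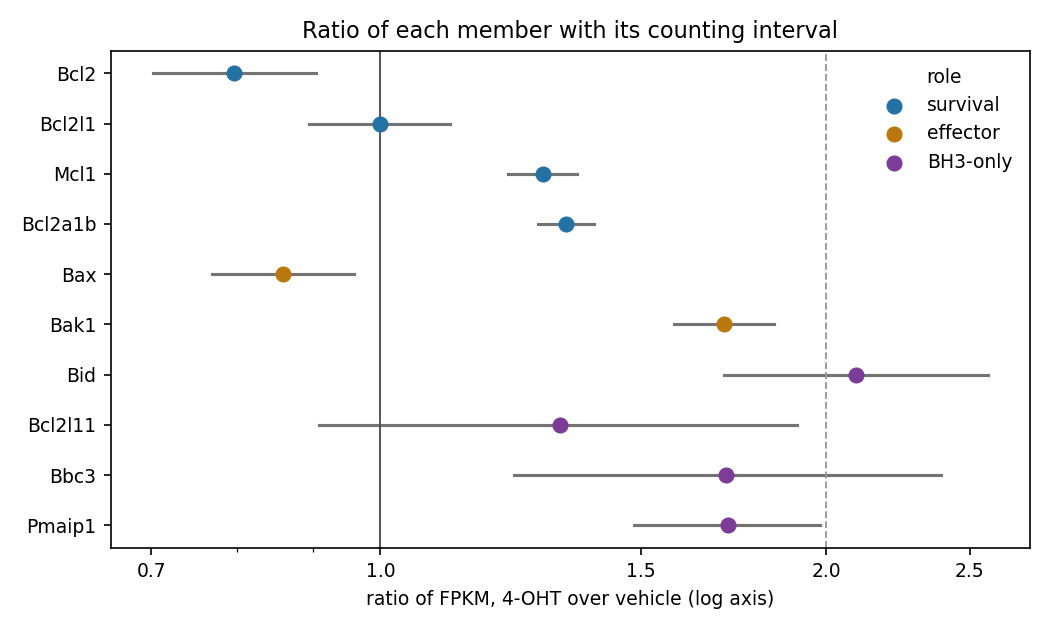
Ratio of FPKM, 4-OHT over vehicle, for each member (points, log axis), coloured by role, with its 95% counting interval on the fewest fragments the transcripts allow; the solid line is 1 and the dashed line 2. The intervals of 6 members lie above 1 (Mcl1, Bcl2a1b, Bak1, Bid, Bbc3 and Pmaip1), those of Bcl2 and Bax lie below 1, and those of Bcl2l1 and Bcl2l11 include 1.

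Summed levels gave another picture of the balance than the medians. The 4 survival members summed to 415 FPKM with 4-OHT and 333 FPKM with vehicle, and the 6 death-promoting members to 242 FPKM and 201 FPKM. The survival sum was 1.71 times the death-promoting sum with 4-OHT and 1.66 times with vehicle, so the summed balance of these members differed little. These sums rest on Bcl2a1b, Mcl1 and Bax, the most abundant genes. Without Bcl2a1b, the ratio was 0.816 with 4-OHT and 0.846 with vehicle. The survival sum leaves out Bcl2a1d (82.7 FPKM with 4-OHT and 32.7 FPKM with vehicle) and Bcl2a1a (67.2 FPKM and 42.3 FPKM). It therefore depends on how fragments were divided among the copies, and adding these copies would raise the survival sum more with 4-OHT than with vehicle. The BH3-only genes alone summed to 69.0 FPKM with 4-OHT and 38.8 FPKM with vehicle, and the survival sum was 6.01 times theirs with 4-OHT and 8.59 times with vehicle. Between single partners, Bcl2l1 stood at 2.17 times Bid with 4-OHT and 4.55 times with vehicle, and Mcl1 at 7.31 times Pmaip1 with 4-OHT and 9.75 times with vehicle. Mcl1 over Bcl2l11 was 13.7 with 4-OHT and 14.1 with vehicle. Transcript ratios leave protein levels unknown.

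The rest of the family went both ways, 5 genes above 0 and 7 below. Of all genes tested, 7217 were above 0 and 6341 below, and 5.78% were at least 2-fold higher and 3.48% lower. Of 16 further family genes, 14 were in the table and 12 passed the minimum, of which Bcl2a1d was at least 2-fold higher and Bnip3 at least 2-fold lower, and their median log2 change was −0.12. Bnip3, a mitophagy receptor that low oxygen induces, was at 6.81 FPKM with 4-OHT and 16.3 FPKM with vehicle (log2 change −1.15), and its relative Bnip3l was at 29.1 FPKM and 39.6 FPKM (−0.43). The other BH3-only genes lay within 1.5-fold on the scale of FPKM plus 1, Bad at 14.0 FPKM with 4-OHT and 14.1 FPKM with vehicle, Bmf at 1.40 FPKM and 2.17 FPKM and Bik at 1.19 FPKM and 1.18 FPKM. Bok, an effector-like gene, was at 3.96 FPKM with 4-OHT and 6.24 FPKM with vehicle (−0.55). The survival gene Bcl2l2, which encodes BCL-W, was at 10.2 FPKM with 4-OHT and 12.2 FPKM with vehicle. Of the atypical members, Bcl2l12 was at 5.86 FPKM and 7.09 FPKM and Bcl2l15 at 1.26 FPKM and 1.21 FPKM. Bcl2l14, at 0.134 FPKM with 4-OHT and 0.297 FPKM with vehicle, and Bcl2a1c, at 0.719 FPKM and 0.484 FPKM, were under the minimum, and Bcl2l10 and Hrk were not analysed here.

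Genes upstream of the family differed between branches. Over all genes tested, 5.78% were at least 2-fold higher and 3.48% lower, and 7217 of 13558 were above 0. Of 10 genes of the death receptor branch, which acts on Bid, 4 were at least 2-fold higher and none lower, with a median log2 change of 0.80. The gene of the death ligand TRAIL, Tnfsf10, was at 21.5 FPKM with 4-OHT and 0.684 FPKM with vehicle, Tnf at 76.7 FPKM and 20.8 FPKM, and Fasl, the ligand of FAS, at 3.83 FPKM and 0.501 FPKM. The fourth was Cflar, which encodes the caspase-8 inhibitor cFLIP, at 177 FPKM with 4-OHT and 81.5 FPKM with vehicle. Of 8 genes of NF-kB, which induces A1 and Bcl2l1, 2 were at least 2-fold higher and all 8 were above 0, with a median of 0.89, with Tnfaip3, the inhibitor A20, at 65.4 FPKM with 4-OHT and 23.5 FPKM with vehicle and the subunit gene Relb at 27.9 FPKM and 12.0 FPKM. Nfkbia, the inhibitor that NF-kB induces in feedback, was at 111 FPKM with 4-OHT and 59.2 FPKM with vehicle.

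The integrated stress response can induce Bbc3, Pmaip1 and Bcl2l11. Of its 8 listed genes 5 reached 2-fold upward and none downward, beside 5.78% and 3.48% of all genes tested, with a median of 1.42. Its death-linked factor Ddit3, which encodes CHOP, was at 163 FPKM with 4-OHT and 29.4 FPKM with vehicle. The stress-induced pseudokinase gene Trib3 was at 47.4 FPKM and 9.40 FPKM, and Ppp1r15a, which encodes the phosphatase subunit GADD34, at 103.9 FPKM and 29.4 FPKM. Of 11 genes of p53, which induces Bax, Bbc3 and Pmaip1, none differed by 2-fold and the median was 0.11. The members of that list furthest from 0 were Zmat3, an RNA-binding protein, at 11.2 FPKM with 4-OHT and 21.3 FPKM with vehicle, Mdm4, an inhibitor of p53, at 37.8 FPKM and 22.8 FPKM, and Ccng1, cyclin G1, at 72.0 FPKM and 108 FPKM. The 3 FOXO factors, activators of Bcl2l11 and Bbc3, had changes of −0.38 to −0.10. Of 7 genes that mark the interferon response, 6 were at least 2-fold higher, beside 5.78% of all genes tested. The median of the 7 was 4.50, and Ifit1, Isg15 and Irf7 led with changes of 6.04, 5.52 and 5.19.

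Downstream of BAX and BAK, none of 12 genes differed by 2-fold, beside 5.78% of all genes tested higher and 3.48% lower. The median of the 12 was 0.08. Among those furthest from 0 were the caspase gene Casp6, at 6.70 FPKM with 4-OHT and 10.9 FPKM with vehicle, and Dffb, the apoptotic nuclease, at 1.51 FPKM and 2.45 FPKM. Of 4 inhibitors of apoptosis, 2 were at least 2-fold higher, Birc3 at 62.1 FPKM with 4-OHT and 24.1 FPKM with vehicle and Birc2 at 33.8 FPKM and 14.0 FPKM, both ubiquitin ligases of the TNF receptor complex. The third gene by change, Birc6, was at 78.8 FPKM with 4-OHT and 65.7 FPKM with vehicle. Of 5 tested genes that control the stability of MCL1 protein, 1 was higher, March5, a mitochondrial ubiquitin ligase that takes part in MCL1 and NOXA turnover, at 44.0 FPKM with 4-OHT and 13.7 FPKM with vehicle. Its ratio was 3.21 with an interval of 2.87 to 3.60. The ligase genes Fbxw7 and Btrc had changes of 0.18 and 0.16.

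**Figure D5:**
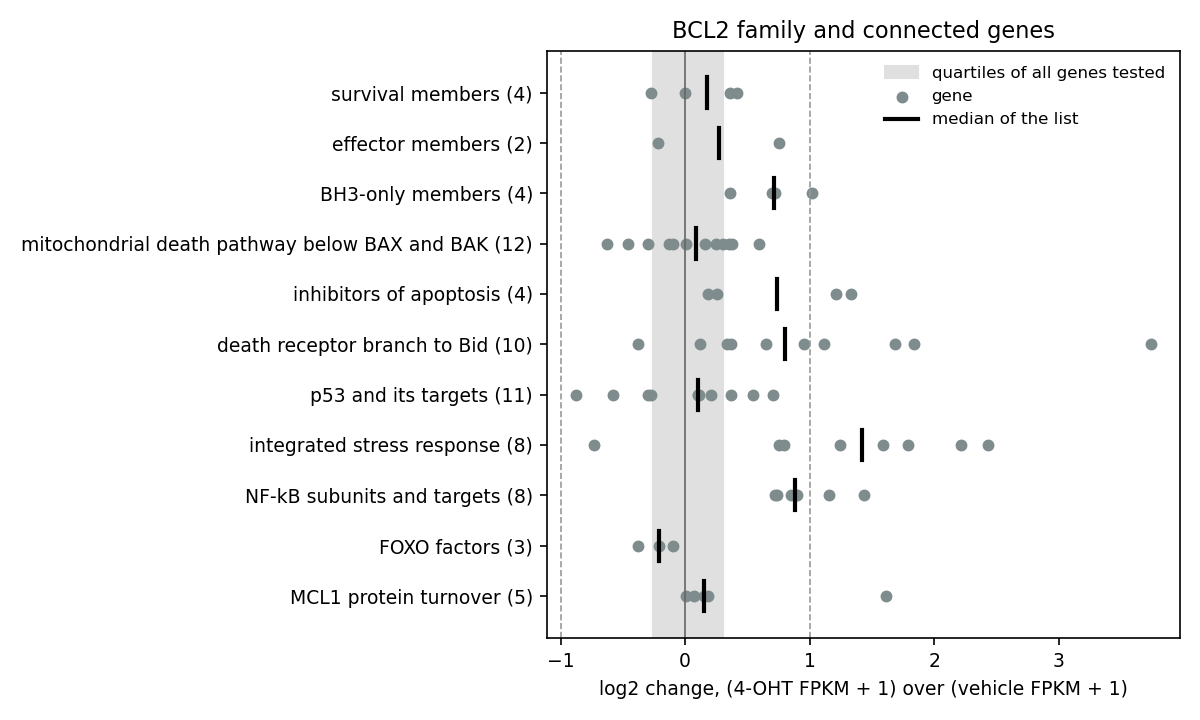
Log2 change of each gene (points) that reached 1 FPKM in either library, by list, with the number of genes in brackets and the list median as a black bar; the grey band spans the quartiles of all genes tested (−0.25 to 0.30) and the dashed lines mark 2-fold. The medians of the BH3-only members (0.71), the death receptor branch (0.80), NF-kB (0.89) and the stress response (1.42) lie right of the band, and those of the p53 list (0.11) and the genes below BAX and BAK (0.08) lie inside it.

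For the 4 members past 1.5-fold, the q-value in the authors' deposited table was 0.727 for Bid, 0.804 for Pmaip1, 0.918 for Bak1 and 0.9996 for Bbc3. In the authors' deposited table it was 0.119 for Bcl2a1d and 0.142 for Bnip3, the further family genes past 2-fold. That test had 1 library on each side, so its values compare the libraries rather than the conditions.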

How the data were processed

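The authors deposited 1 table with an FPKM value per gene for each of the 2 libraries, per the file headers. The submitters' processing notes name STAR, Cufflinks and GRCm38 but give no version or role; the scaling between libraries is not given in the sources used here. As deposited, the log2 fold change equalled the log2 of both FPKM values plus 1 (within 1e-09 in all 17128 symbols), and the p-value, q-value, −log10 p and signed score columns are deposited values as well, named in the file headers; of these only the q-value is quoted. All 17145 identifiers matched GENCODE M21, from which coordinates and lengths were taken; 20 symbols stored as dates, March5 among them, were restored by identifier, and of rows with one symbol that with the highest FPKM sum was kept.

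Changes used a pseudocount of 1 FPKM, which understates low genes, and only genes that reached 1 FPKM in either library were counted. Depth came from low values of single-transcript genes over 600 bases. FPKM times length less 171 (4-OHT) or 176 bases (vehicle) fell within 0.1 of whole steps for 98.7% of 394 and 97.7% of 399 values. A step set in advance would give 20% by chance, but the step and the bases taken off were fitted to these same values. Thus 1 FPKM over 1 kilobase stood for 30.5 fragments with 4-OHT and 38.6 with vehicle. Exact 95% intervals used the shortest transcript of at least 300 bases. Fragments may be PCR copies of one molecule, which the files cannot show. The step search was tested on simulated data. Named genes were all members, all further family genes the 3 genes furthest from 0 in each connected list, genes given as background to a member (Casp8 beside Bid), up to 3 markers of highest FPKM per list and any marker at 0; Cflar was named to complete a count after its value was seen. One gene that the rule would name is not reported here. Members and lists were chosen with earlier results of these data known. Alternatives were other pseudocounts, minimums, scalings, folds and handling of repeated symbols. Python 3.11.15, pandas 2.3.3, scipy 1.17.1 and Biopython 1.88 were used.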

Additional observations from a re-analysis of the deposited data

How the results depend on the processing

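The 10 members kept the sign of their change in all 70 values over 7 alternatives, but most of these could not have altered a sign. A pseudocount cannot do so, and the minimums and the summing of repeated symbols left the members' values unchanged. Only the same FPKM total and the median change of all genes set to 0 could have. The death-promoting median stayed above the survival median in each alternative, by 0.36 to 0.59 in log2. That order also had little room to change. Rescaling moved both medians nearly alike, and the minimums and the summing left them unchanged, so only the pseudocounts altered the gap much. The choice of family genes counted in each median was not varied. The call of Bid at 2-fold did not hold: 0 members were higher with a pseudocount of 5 (Bid 0.85), with both libraries set to the same FPKM total (0.86) and with the median change of all genes set to 0 (0.98), against 1.02 as reported. At 1.5-fold, 4 members were higher, but Bbc3 (0.51 and 0.55) and Pmaip1 (0.57 and 0.57) lost that call with a pseudocount of 5 and with the same FPKM total, which left Bid and Bak1. No alternative gave a member that was lower by 2-fold. Setting the same FPKM total put the median of all genes at −0.11 and the survival median at 0.0153; under it Bak1 was at 0.59, Bcl2a1b at 0.25, Mcl1 at 0.20, Bcl2l1 at −0.17 and Bax at −0.38. Over all genes, a pseudocount of 5 gave 456 higher and 163 lower, a pseudocount of 0.1 gave 859 lower, and 1.5-fold gave 1581 higher and 1386 lower. No replicate could be left out with 1 library per group. No paired analysis was possible because each group had 1 library and no test was made. Depth limits Bcl2l11 and Bbc3, whose fewest fragments were 63 and 90 with 4-OHT and 59 and 65 with vehicle; on the longest transcripts Bbc3 had 631 with 4-OHT and 465 with vehicle.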
